A study of Bos taurus with 18 samples.

Results

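bta-miR-451, bta-miR-486 and bta-miR-144 are miRNAs that red blood cells carry in large amounts. They were taken by name, as 3 of the 1071 miRNAs in the deposited tables, and followed in all 18 libraries as markers of red-cell RNA in plasma. The libraries are small RNA-seq of plasma of 3 Japanese Black steers, taken in EDTA tubes from the jugular vein at about 20, 25 and 30 months of age. Each of the 9 plasma samples gave 1 exosomal (EX) library, from RNA in purified vesicles, and 1 free circulating (FC) library, from RNA bound to proteins outside them. There are thus 6 groups of 3 libraries, and the same 3 steers under 1 feeding system stand in every group. The age groups are therefore repeated samples of 3 animals and not separate cohorts, and age cannot be told apart from any difference in blood draw, storage or library preparation between the sampling times.

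A developing red cell makes miR-451 and miR-144 from a shared precursor locus that the red-cell transcription factor GATA1 switches on. miR-451 is cut by the Argonaute2 protein without Dicer, the enzyme that finishes most other miRNAs, while miR-144 follows the usual Dicer route. miR-486 is made from within the gene of ankyrin 1, a protein of the red-cell membrane skeleton, and muscle makes it too. Mature red cells keep these miRNAs after they lose their nucleus, so that cells broken during a blood draw release them into plasma, and intact plasma also holds some. The level of miR-451 relative to miR-23a, a miRNA that red cells hold in small amounts, is the usual index of such lysis by qPCR, but a limit set for qPCR does not carry over to read counts.

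The mature sequences are shown because the members share no seed, the stretch of bases 2 to 8 (in capitals) that pairs with target mRNAs. They are written 5′ to 3′, as the count table lists them.
bta-miR-451: aAACCGUUaccauuacugaguuu
bta-miR-486: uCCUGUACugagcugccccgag
bta-miR-144: uACAGUAUagaugauguacuag
Among 1030 known miRNAs of the table, 0 others held bases 2 to 8 of any member. Bases 2 to 7 of bta-miR-144 were found in 2 others, which differ from it at base 8.
bta-miR-101: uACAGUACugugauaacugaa
bta-miR-199c: uACAGUAGucugcacauugg
bta-miR-101 was far more abundant than bta-miR-144, at 11020 ± 2530 CPM (counts scaled to the library total, mean ± SD, n = 9) in EX and 7130 ± 1482 CPM in FC. bta-miR-199c was at 303.8 ± 147 CPM in EX and 364 ± 130.1 CPM in FC. In the RefSeq gene table of assembly ARS-UCD2.0, MIR451 and MIR144 are neighbours with no gene listed between them, flanked by ERAL1 and FLOT2, and MIR486 lies within ANK1. This assembly is not the one behind the deposited counts, so it served only for names and neighbours.

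The total count assigned to miRNAs was 991354 to 2778618 in EX and 3615234 to 12088735 in FC. Every library held all 3 members far above a floor of 3 counts, which was worth 1.08 to 3.03 CPM in an EX library and 0.248 to 0.83 CPM in an FC library. The shallowest value was bta-miR-144 in EX of steer 3 at 30 months, with 98 counts or 90.5 CPM, for which the exact 95% interval was 73.5 to 110.3 CPM. Such intervals cover counting error only, since reads copied by PCR are not independent molecules. The 30 months EX libraries detected 258 to 296 miRNAs against 381 to 446 at 20 and 25 months. Their most common low counts were 86, 68 and 39 in steers 1, 2 and 3, against 10 to 44 in the earlier EX libraries, so that steer 3 lay within the earlier range. In the 30 months EX libraries 38, 32 and 37 miRNAs had counts of at least 1 but well below the most common one. Whether the most common count stands for 1 molecule was not tested. If such a count stood for 1 molecule, the bta-miR-144 counts of 529, 292 and 98 in these libraries would come to 6.15, 4.29 and 2.51 molecules. The 3 members were thus not equally well measured, and bta-miR-144 in EX at 30 months would then rest on few independent observations.

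bta-miR-451, the most red-cell-specific of the members, was the 12th most abundant miRNA in EX and the 26th in FC. In EX it stood at 12935, 14239 and 34462 CPM in steers 1, 2 and 3 at 20 months. At 25 months the same steers had 43037, 20165 and 12461 CPM, and at 30 months they had 7592, 5882 and 8502 CPM. All 3 values at 30 months were thus below all 6 earlier ones. How many of all miRNAs separated the ages in this way was not counted. In FC the levels were 3652, 10010 and 16242 CPM at 20 months, and 20781, 11886 and 8394 CPM at 25 months. At 30 months FC held 5717, 3757 and 4070 CPM, all below the 25 months values but not below the lowest one at 20 months, which came from steer 1. Since each value is a share of a plasma library, fewer red cells behind it and less of the miRNA per red cell cannot be told apart.

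bta-miR-486 was the 8th most abundant miRNA in EX and the 11th in FC, and it did not share the low values at 30 months. In EX it stood at 12101, 22878 and 40309 CPM at 20 months in steers 1, 2 and 3. The 25 months values were 48399, 24151 and 15809 CPM, and those of 30 months were 46216, 28599 and 40868 CPM. The 30 months values lay within the range of the earlier ones. In FC it stood at 6974, 13748 and 28719 CPM at 20 months, and at 25522, 13194 and 10345 CPM at 25 months. The 30 months FC values were 28415, 17560 and 23023 CPM, again inside the earlier range.

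bta-miR-144 was 106th in EX and 117th in FC, far below bta-miR-451 although both come from 1 locus. In EX it stood at 354, 352 and 713 CPM at 20 months, and at 808, 540 and 288 CPM at 25 months. At 30 months the EX values were 266, 295 and 90.5 CPM, of which 2 were below all earlier ones and that of steer 2 was just above the lowest value at 25 months. In FC it stood at 94.6, 318 and 516 CPM at 20 months, and at 499, 279.7 and 209 CPM at 25 months. The 30 months FC values of 248, 203 and 279 CPM lay within the earlier range. Together the 3 members took 2.54 to 9.22% of the counts in EX and 1.07 to 4.68% in FC.

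**Figure D1:**
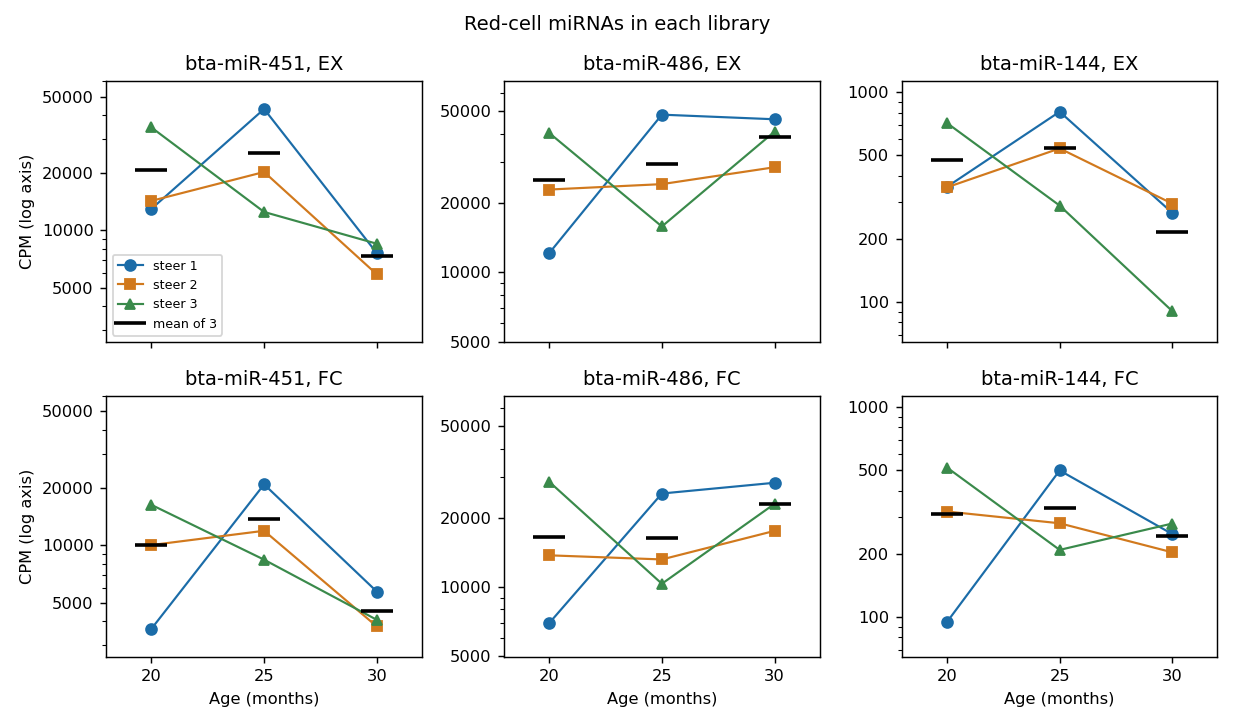
Abundance of each member (CPM, log axis) against age in months, in EX (top row) and FC (bottom row), with 1 line per steer and a bar for the mean of 3. bta-miR-451 in EX is at 5882 to 8502 CPM in all steers at 30 months, below every earlier value, while bta-miR-486 stays within its earlier range and the lines of steers 1 and 3 cross between 20 and 25 months.

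By group mean, the levels of bta-miR-451 ran in the order EX at 25 months (25221 ± 15903 CPM, mean ± SD, n = 3), EX at 20 months (20545 ± 12070), FC at 25 months (13687 ± 6387), FC at 20 months (9968 ± 6295), EX at 30 months (7325 ± 1330) and FC at 30 months (4515 ± 1053). Each step between neighbours in this order was smaller than the larger SD of the pair except the last, from EX to FC at 30 months. For bta-miR-486 the highest group was EX at 30 months (38561 ± 9032 CPM) and the lowest FC at 25 months (16354 ± 8067), close to FC at 20 months (16480 ± 11127) and below FC at 30 months (23000 ± 5428). bta-miR-144 was highest in EX at 25 months (545 ± 259.7 CPM) and lowest in EX at 30 months (217 ± 110.5), where FC was at 243.5 ± 38.1.

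The first question was how the members changed between the ages at which the study compared plasma profiles. bta-miR-451 fell in EX from 25 to 30 months, with a log2 fold change of -2.20 ± 0.51 (SE, n = 3 steers, edgeR's quasi-likelihood test with steer as a block, Benjamini-Hochberg FDR = 0.0269), to 0.176, 0.292 and 0.682 times the 25 months level in steers 1, 2 and 3. It was the 1 member called at FDR under 0.05 with an absolute log2 fold change above 1, where 14.2% of the 345 miRNAs tested in EX were called and 10.4% were called lower. bta-miR-486 differed by -0.04 ± 0.54 (FDR = 0.976), and by the log2 fold change of 0.39 when scaled to the library total alone, so that no direction can be given. bta-miR-144 differed by -1.76 ± 0.57 (FDR = 0.0767), lower in 3 of 3 steers but not called, while it was called without the block for steer (FDR = 0.0409), with DESeq2 (FDR = 0.0184) and with the likelihood ratio test (FDR = 0.0333). The median over all miRNAs tested was -0.51, and it was -0.43 with DESeq2-type size factors and -0.04 with the library total alone.

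The call for bta-miR-451 in EX did not hold when any 1 steer was left out, with FDR = 0.0585 without steer 1, 0.173 without steer 2 and 0.0591 without steer 3, at log2 fold changes of -2.54 to -1.81. With the library total as the sole scaling the log2 fold change was -1.78 (FDR = 0.0558).

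In FC no member was called from 25 to 30 months, where 15.6% of 358 miRNAs were called and 10.1% were called lower. bta-miR-451 differed by -1.68 ± 0.52 on the log2 scale (FDR = 0.0516), at 0.275, 0.316 and 0.485 times the 25 months level in steers 1, 2 and 3. It passed the threshold with DESeq2 (FDR = 0.00684), the likelihood ratio test of edgeR (FDR = 0.00724) and without the block for steer (FDR = 0.0308). bta-miR-486 differed by 0.41 ± 0.47 (FDR = 0.552), higher in 3 of 3 steers, and bta-miR-144 by -0.56 ± 0.53 (FDR = 0.461). The median over all miRNAs tested in FC was -0.20.

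From 20 to 30 months bta-miR-451 also fell in EX, by 1.84 on the log2 scale (FDR = 0.0470, 13.3% of all tested called and 9.86% called lower). It stood at 0.587, 0.413 and 0.247 times the 20 months level in the 3 steers, and this call too was lost when any 1 steer was left out (FDR = 0.0701 to 0.269) and with the library total alone (-1.47, FDR = 0.0942). bta-miR-144 differed by -1.62 in EX (FDR = 0.106, called with DESeq2 at -1.48 and FDR = 0.0417, but -0.69 with FDR = 0.392 without steer 3) and bta-miR-486 by 0.20 (FDR = 0.838). In FC none of the members was called by edgeR's quasi-likelihood test (6.98% of all tested were), with -1.13 for bta-miR-451 (FDR = 0.187, called with no filter on low counts at -1.23 and FDR = 0.0410, but -0.87 and -0.59 without steers 2 and 3 and -1.80 without steer 1), -0.27 for bta-miR-144 (FDR = 0.767) and 0.52 for bta-miR-486 (FDR = 0.505). Steer 1, whose FC library held the lowest levels of the 3 members among the steers at 20 months, went the other way from the other two: its bta-miR-451 in FC was 1.57 times the 20 months level.

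Between 20 and 25 months no member was called in either fraction, by edgeR's quasi-likelihood test (0 of 3 at an unadjusted p under 0.05), DESeq2 or the likelihood ratio test. Of all miRNAs 0.29% were called in EX and 0% in FC. The absence of a call did not come from steady levels. In steer 1 bta-miR-451 went up 3.33-fold in EX and 5.69-fold in FC, in steer 2 it was at 1.42 and 1.19 times its earlier level, and in steer 3 it went to 0.362 and 0.517 times. bta-miR-486 moved in like manner, with 3.999-fold, 1.06-fold and 0.392-fold in EX and 3.66-fold, 0.96-fold and 0.360-fold in FC. bta-miR-144 was at 2.28, 1.53 and 0.404 times the earlier level in EX and at 5.28, 0.879 and 0.405 times in FC.

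These moves put the plasma samples in opposite orders at the 2 ages. At 20 months bta-miR-451 and bta-miR-486 were lowest in steer 1 and highest in steer 3 in both fractions, and at 25 months they were highest in steer 1 and lowest in steer 3. In FC at 20 months the SD of log2(CPM + 1) over the 3 steers was 1.10 for bta-miR-451, 1.02 for bta-miR-486 and 1.254 for bta-miR-144, against a median of 0.372 over all 358 miRNAs, and 93.6 to 97.5% of miRNAs had a smaller SD than these members. This was the widest group: 57.4 to 73.04% of miRNAs had a smaller SD than the members in EX at 20 and 25 months, and 72.3 to 76.3% in FC at 25 months, where the members lay below the median (0.360 to 0.410 against 0.432) on TMM-normalized values. At 30 months the steers were closer, with SDs of 0.272 in EX and 0.321 in FC for bta-miR-451 and 0.360 and 0.348 for bta-miR-486, below the medians of 0.569 and 0.469. bta-miR-144 at 30 months had an SD of 0.937 in EX and 0.23 in FC.

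Within a library, the ratio of 2 members does not depend on the library total or on the scaling. The ratio of bta-miR-486 to bta-miR-451 counts in EX was 0.936, 1.61 and 1.17 at 20 months and 1.12, 1.198 and 1.27 at 25 months in steers 1, 2 and 3. At 30 months it was 6.09, 4.86 and 4.81. The FC ratios were 1.91, 1.37 and 1.77 at 20 months and 1.23, 1.11 and 1.23 at 25 months. At 30 months they were 4.97, 4.67 and 5.66. Libraries of 20 and 25 months thus held 0.936 to 1.91 reads of bta-miR-486 for each read of bta-miR-451, and every 30 months library held 4.67 or more.

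The rise of this ratio at 30 months, against the mean of the 2 earlier ages, was 2.12 on the log2 scale in EX (4.35-fold) and 1.85 in FC (3.61-fold). It was seen in 3 of 3 steers in both fractions, with no overlap between the ages. An exact two-sided permutation test of ages within steers gave p = 0.037 in each fraction, the smallest p it can give, and 0.0444 after Benjamini-Hochberg adjustment over 6 tests of ratios. The ratios share members and the fractions share plasma, so these 6 tests are not independent. Ratios of other pairs of miRNAs were not tested in this way. The ratio differed little between the fractions of 1 plasma sample, by -0.14 ± 0.43 (EX minus FC, log2, SD over 9 plasma samples, exact permutation p = 0.406).

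The pair from 1 locus behaved otherwise. The ratio of bta-miR-451 to bta-miR-144 was 36.5 to 53.3 in the EX libraries of 20 and 25 months, and 28.5, 19.97 and 93.9 at 30 months, so that steers 1 and 2 were below and steer 3 above the earlier range. The difference in EX was -0.18 on the log2 scale (exact permutation p = 0.741), and the 98 counts of bta-miR-144 in steer 3 set its high value. In FC the ratio fell, from 31.5 to 42.5 at the earlier ages to 23.02, 18.5 and 14.6 at 30 months, by 1.02 on the log2 scale in 3 of 3 steers (exact permutation p = 0.037, adjusted p = 0.0444). The ratio of bta-miR-486 to bta-miR-144 rose in both fractions, by 1.94 in EX and 0.83 in FC (exact permutation p = 0.037 and adjusted p = 0.0444 each). In EX it went from 34.2 to 64.9 at the earlier ages to 97.1 to 452, and in FC from 43.2 to 73.7 to 82.5 to 114. In FC, where all 3 members had 735 or more counts in each library, bta-miR-451 at 30 months was thus lower relative to both other members, and bta-miR-144 lower relative to bta-miR-486. Between EX and FC of a plasma sample, bta-miR-451 to bta-miR-144 differed by 0.48 ± 0.86 (exact permutation p = 0.0352, adjusted p = 0.105 over 3 ratios, and p = 0.25 with fractions exchanged by steer) and bta-miR-486 to bta-miR-144 by 0.34 ± 0.94 (exact permutation p = 0.371).

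**Figure D2:**
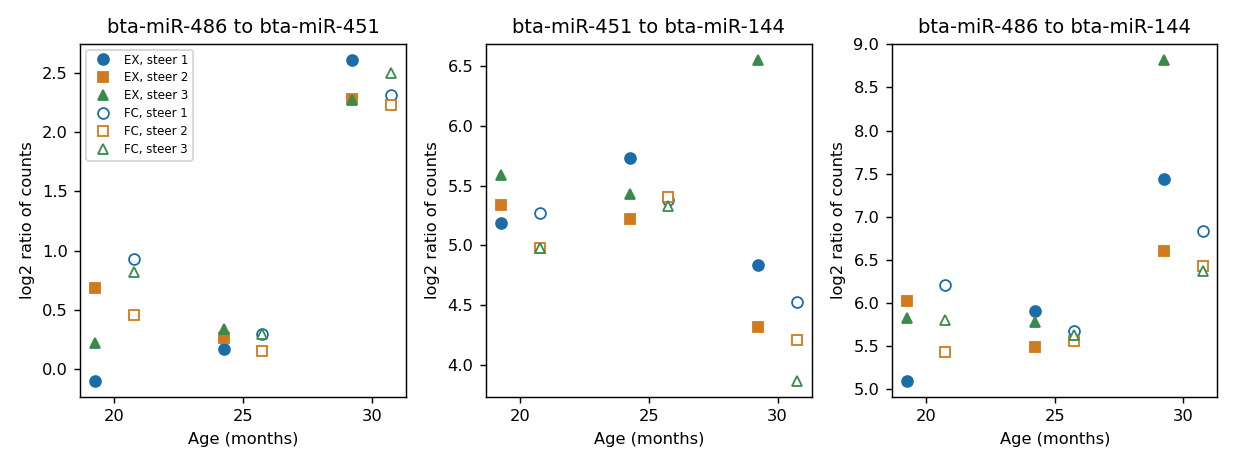
Log2 ratio of the counts of 2 members in each library against age in months (filled EX, open FC, 1 colour and marker per steer, points shifted sideways by fraction). The ratio of bta-miR-486 to bta-miR-451 lies between -0.10 and 0.93 in all libraries of 20 and 25 months and between 2.22 and 2.61 in all of 30 months, while bta-miR-451 to bta-miR-144 in EX of steer 3 stands above the rest at 6.55.

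The members also moved together before 30 months. Over the 6 EX libraries of 20 and 25 months, Pearson's r of log2(CPM + 1) was 0.945 between bta-miR-486 and bta-miR-451, 0.978 between bta-miR-451 and bta-miR-144 and 0.902 between bta-miR-486 and bta-miR-144, and in FC it was 0.934, 0.976 and 0.962. Over all 9 libraries the first pair gave 0.192 in EX and 0.344 in FC, the second 0.792 and 0.802, and the third 0.040 in EX but 0.778 in FC. These values describe libraries that share 3 steers and 3 ages and are not independent.

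Relative to bta-miR-23a, the index of lysis used in plasma work, the plasma samples stood in different orders at 20 and 25 months. The ratio of bta-miR-451 to bta-miR-23a in EX was 0.744, 1.497 and 2.93 at 20 months and 3.08, 1.47 and 1.62 at 25 months, and the 30 months values were 0.80, 0.539 and 0.862. In FC it was 0.289, 1.203 and 1.62, then 1.46, 0.918 and 1.05, then 0.759, 0.423 and 0.543. By this index the highest EX libraries were those of steer 1 at 25 months and steer 3 at 20 months, and the lowest FC library was that of steer 1 at 20 months. The difference at 30 months was -1.24 in EX and -0.78 in FC on the log2 scale (exact permutation p = 0.148 and 0.259), with overlapping ages in both. The ratio of bta-miR-486 to the same reference was 1.84-fold higher at 30 months in EX and 2.10-fold in FC (exact permutation p = 0.185 and 0.111), so that the values of both red-cell markers lay in opposite directions, neither past the threshold. That of bta-miR-144 differed by -1.06 in EX and 0.24 in FC (exact permutation p = 0.185 and 0.778). bta-miR-23a had fractional counts in part of the libraries. Its own level was 10092 ± 744 CPM in EX at 30 months and 11794 ± 3568 CPM at 25 months (mean ± SD, n = 3). In FC it was 7969 ± 791 CPM at 30 months and 11750 ± 3289 CPM at 25 months, so the level of the reference moves these ratios.

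Relative to bta-miR-93, the control of the qPCR in the study, bta-miR-451 in EX was at 1.19 to 2.89 in the earlier libraries and at 0.285, 0.364 and 0.491 at 30 months. This difference of -2.23 on the log2 scale had the smallest p the design can give (exact permutation p = 0.037) but an adjusted p of 0.222 over 12 tests relative to the references. The same held for bta-miR-144 in EX, with -2.05. In FC the differences were -1.75 for bta-miR-451 (exact permutation p = 0.0741) and -0.72 for bta-miR-144 (exact permutation p = 0.259). bta-miR-486 differed by -0.11 in EX and 0.10 in FC (exact permutation p = 0.852 and 0.889). bta-miR-93 itself was at 20044 ± 5769 CPM in EX at 30 months and 11388 ± 3259 CPM at 25 months (mean ± SD, n = 3). In FC it was at 19049 ± 4006 CPM at 30 months and 11944 ± 1966 CPM at 25 months, so the choice of reference moves these values. No measure of hemoglobin was used here, and whether red cells lysed in any sample was not tested.

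**Figure D3:**
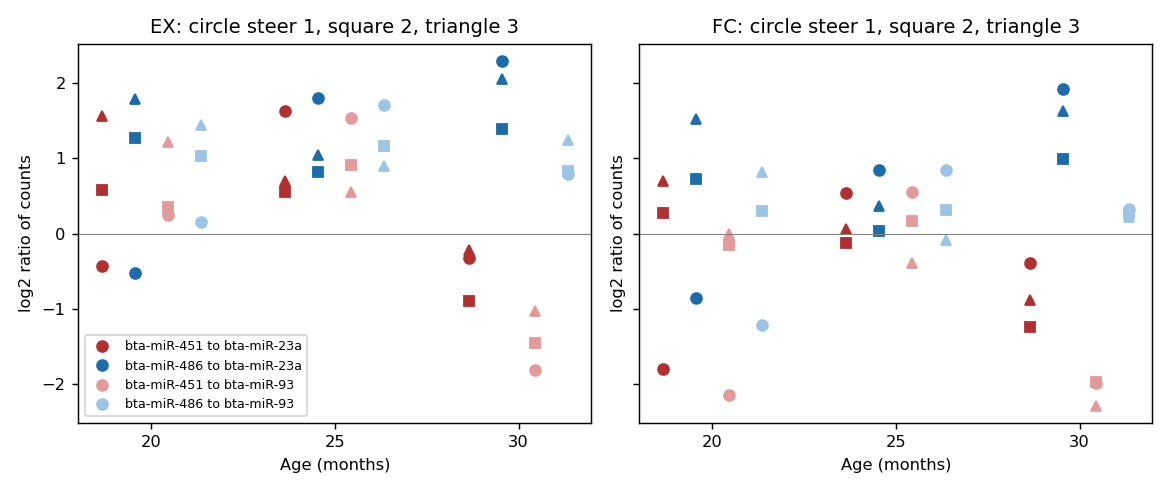
Log2 ratio of bta-miR-451 (red) and bta-miR-486 (blue) counts to bta-miR-23a (dark) and bta-miR-93 (light) in each library against age in months, EX left and FC right, points shifted sideways by ratio. At 30 months bta-miR-451 is below 0 in all 6 libraries for both references, while bta-miR-486 is above 0 in all 6.

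The next question was how the members differ between vesicle and protein-bound RNA of the same plasma. bta-miR-451 was higher in EX than in FC in 9 of 9 plasma samples, by 1.33 to 3.54 times (median 1.70). bta-miR-486 was higher in 9 of 9, within a narrower range of 1.404 to 1.90 times (median 1.66). bta-miR-144 was higher in 8 of 9 (median 1.38), and the exception was steer 3 at 30 months with 0.324 times.

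In edgeR's quasi-likelihood test with plasma sample as a block, bta-miR-451 was called at 20 months, with a log2 fold change of 1.09 ± 0.23 (FDR = 0.0172), where 2.12% of the 330 miRNAs tested in both fractions were called and 1.21% were called higher in EX. This call was lost without steer 1 (0.82, FDR = 0.0557) and without steer 3 (1.17, FDR = 0.0861). It was also lost with steer in place of plasma sample as the block. At 25 months bta-miR-451 differed by 0.78 ± 0.23 (FDR = 0.0953) and at 30 months by 0.44 ± 0.23 (FDR = 0.185), and no member was called at these ages, where 2.12% and 13.6% of all tested were. bta-miR-486 passed the FDR limit at each age, at 0.63 ± 0.11 (FDR = 0.00692), 0.78 ± 0.11 (FDR = 0.00208) and 0.48 ± 0.11 (FDR = 0.0110), but stayed below the fold limit of 1. The FDR limit was lost at 20 months without steer 2 (FDR = 0.0628) and at 30 months without steer 2 (0.36, FDR = 0.0901) or steer 3 (0.22, FDR = 0.117). With steer as the block bta-miR-486 did not pass it at any age. bta-miR-144 differed by 0.78, 0.68 and -0.56 at 20, 25 and 30 months (FDR = 0.480, 0.562 and 0.396). The median over all tested was -0.14, -0.34 and -0.56 at these ages.

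The fraction difference also held relative to the reference miRNAs of the same library. bta-miR-451 to bta-miR-23a was higher in EX by 0.67 ± 0.40 and bta-miR-486 to bta-miR-23a by 0.53 ± 0.23 on the log2 scale (SD over 9 plasma samples). To bta-miR-93 the differences were 0.97 ± 0.64 and 0.83 ± 0.27. Each was seen in 9 of 9 plasma samples, with p = 0.00391 in an exact permutation test that exchanges the fractions within plasma samples, the smallest p it can give, and an adjusted p of 0.00586 over 6 tests. That test counts the 9 plasma samples of 3 steers as independent. Exchanging the fractions by steer, a test added after seeing the data, gave p = 0.25 for each, the smallest that 3 steers allow. bta-miR-144 gave 0.19 ± 0.97 and 0.49 ± 1.03 (exact permutation p = 0.566 and 0.195).

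**Figure D4:**
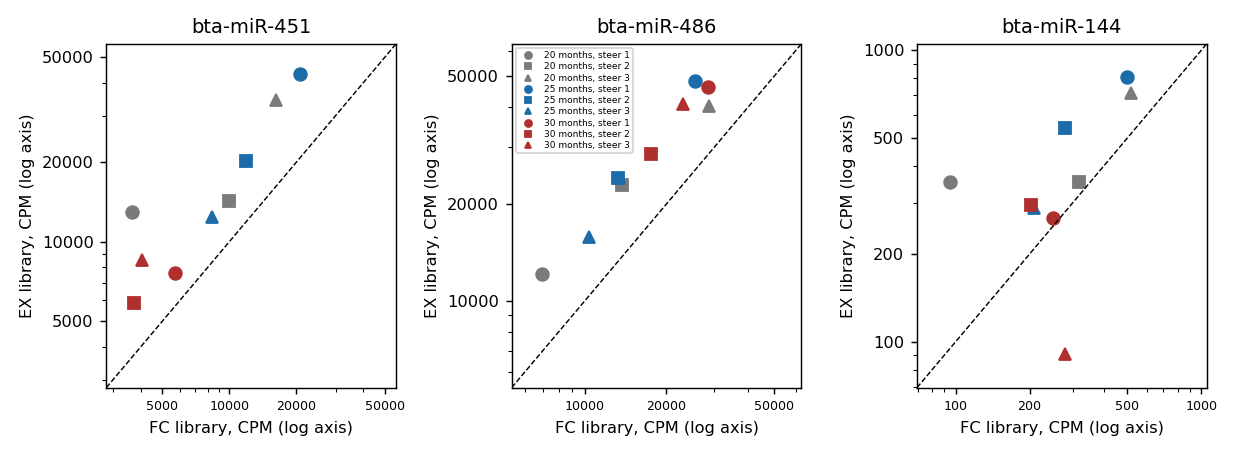
Abundance in the EX library (CPM, log axis) against that in the FC library of the same plasma sample (CPM, log axis) for each member, coloured by age with a marker per steer. The dashed line marks equal abundance, and all 9 points of bta-miR-451 and bta-miR-486 lie above it, while bta-miR-144 of steer 3 at 30 months lies below at 0.324 times.

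Levels in both fractions of a plasma sample went together most closely for bta-miR-486. After the mean of each age was taken out, Pearson's r between EX and FC over the 9 plasma samples was 0.981 for bta-miR-486, 0.816 for bta-miR-451 and 0.421 for bta-miR-144. The median over all 330 miRNAs was 0.444, and 98.2% of them had a lower r than bta-miR-486. The 2 libraries of a plasma sample share the tube of blood, and the 9 samples share 3 steers. By edgeR's quasi-likelihood test the change from 25 to 30 months was not shown to differ between EX and FC for any member. The interaction was -0.33 ± 0.32 for bta-miR-451 (FDR = 0.563), -0.30 ± 0.15 for bta-miR-486 (FDR = 0.283, but 0.0308 with DESeq2, 0.0252 with a filter at CPM above 1 and 0.0349 without steer 3) and -1.25 ± 0.64 for bta-miR-144 (FDR = 0.293), where 6.97% of all tested were called.

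The miRNAs whose levels ran most like those of a member were sought over the 9 libraries of a fraction, among miRNAs of at least 100 CPM. For bta-miR-451 the nearest was bta-miR-2285bc in both fractions (Pearson's r of log2(CPM + 1) 0.911 in EX and 0.899 in FC), followed by bta-miR-184 (0.821) and bta-miR-144 (0.792) in EX and by bta-miR-16a (0.862) and bta-miR-15a (0.822) in FC. For bta-miR-486 the nearest was bta-miR-185 in both (0.925 and 0.940), then bta-miR-93 (0.786) and bta-miR-101 (0.781) in EX and bta-miR-199b (0.888) and bta-miR-101 (0.836) in FC. For bta-miR-144 the nearest was bta-miR-451 in both (0.792 and 0.802), then bta-miR-151-5p (0.750, but Spearman's rho 0.267) and bta-miR-222 (0.746) in EX and bta-miR-199b (0.797) and bta-miR-486 (0.778) in FC. By Spearman's rho, 1 of the 3 nearest miRNAs stayed the same in 4 of the 6 cases, with bta-miR-20a (0.80) and bta-miR-19a (0.767) next after bta-miR-451 for bta-miR-144 in EX.

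A list of 15 other miRNAs that red cells hold took in the miR-15/16 family, the miR-17-92 clusters and the miR-183 cluster. Of the 14 tested, 0 were called higher (3.77% of all miRNAs were) and 2 lower (10.4% of all) in EX from 25 to 30 months by edgeR's quasi-likelihood test. The median log2 fold change was -0.28 (all miRNAs -0.51). DESeq2 also called 0 higher and 2 lower, where it called 85 of all 345 miRNAs in either direction. At an unadjusted p under 0.05 by edgeR's quasi-likelihood test 0 were higher and 5 lower, where 102 of all 345 passed in either direction. bta-miR-20a fell by 1.06 (FDR = 0.0111) and bta-miR-92a by 1.33 (FDR = 0.00992). In FC 2 were called higher (5.59% of all miRNAs were) and 2 lower (10.1% of all) by edgeR's quasi-likelihood test, with a median of -0.49 (all miRNAs -0.20). DESeq2 called 2 higher and 3 lower, where it called 80 of all 358 miRNAs in either direction. At an unadjusted p under 0.05 by edgeR's quasi-likelihood test 2 were higher and 6 lower, where 133 of all 358 passed in either direction. bta-miR-363 fell by 2.92 (FDR = 0.00673) and bta-miR-92a by 1.51 (FDR = 0.0136), while bta-miR-182 rose by 1.54 (FDR = 0.0420) and bta-miR-183 by 1.43 (FDR = 0.0489). Leaving out a steer ended the calls of bta-miR-92a in EX and of bta-miR-182 and bta-miR-183 in each of 3 cases and the other calls in 2 of 3 (FDR up to 0.182). With the library total alone, bta-miR-20a in EX differed by -0.61 (FDR = 0.108) and bta-miR-182 and bta-miR-183 in FC lost their calls (FDR = 0.0633 and 0.0628). With the count rows as deposited, bta-miR-92a, bta-miR-182 and bta-miR-183 lost their calls in FC (FDR = 0.0581, 0.0932 and 0.0932). bta-miR-185, the nearest to bta-miR-486 in pattern, differed by 0.26 in EX and 0.41 in FC without a call (FDR = 0.755 and 0.338). The summed level of the list was 152420 to 232194 CPM in the EX libraries of 20 and 25 months and 152616 to 247554 CPM at 30 months.

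**Figure D5:**
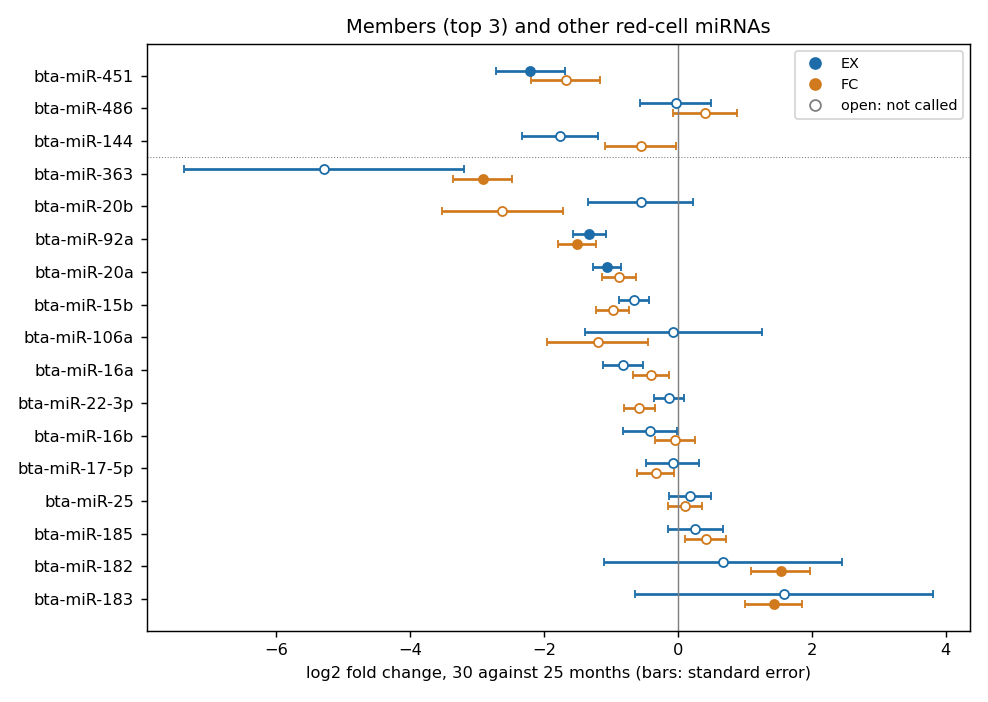
Log2 fold change from 25 to 30 months with its standard error (edgeR) in EX and FC for the 3 members and the 14 other red-cell miRNAs tested, filled where called. bta-miR-451 is at -2.20 in EX and -1.68 in FC and bta-miR-486 at -0.04 and 0.41. The EX values of bta-miR-363, bta-miR-182 and bta-miR-183 include a 30 months library at 0, which makes their bars long.

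Other measures moved with age beside the members. Of 6 white-cell miRNAs, all above 0 in every library, 5 were called lower from 25 to 30 months in each fraction, where 10.4% of all miRNAs were called lower in EX and 10.1% in FC. Their summed level was 150350 to 385803 CPM in the EX libraries of 20 and 25 months and 26570 to 45092 CPM at 30 months. In FC it was 121308 to 305361 CPM and 37373 to 55744 CPM. For muscle, which also makes miR-486, 0 of 5 miRNAs were called from 25 to 30 months in each fraction by edgeR's quasi-likelihood test. Of all miRNAs 14.2% were called in EX and 15.6% in FC. At an unadjusted p under 0.05 by this test there were 0 in EX (102 of all 345) and 1, higher, in FC (133 of all 358). DESeq2 called 0 in EX (85 of all 345) and 1, higher, in FC (80 of all 358). The median log2 fold change of the 5 muscle miRNAs was 0.42 in EX (all miRNAs -0.51) and 0.86 in FC (all miRNAs -0.20). Their summed level was 67.1 to 698 CPM in the EX libraries of 20 and 25 months and 48.4 to 560 CPM at 30 months, and in FC 113 to 384 CPM and 198 to 331 CPM. The total counts at 30 months were 991354 to 1988408 in EX, against 1837454 to 2778618 before, and 3615234 to 4871908 in FC, against 6958135 to 12088735 before. The part of these levels and totals in the results of the members was not tested.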

How the data were processed

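Per the labels and the study's methods, reads were trimmed with cutadapt 5.0 and Trimmomatic 0.39, mapped to a genome of Japanese Black cattle built on ARS-UCD 1.2, and assigned to mature miRNAs with miRDeep2. From these steps come the deposited read counts, expected counts in that a shared read adds a fraction, and the deposited CPM, a count divided by its library total. The CPM values served for levels and to check the count rows. In 4 FC libraries, those of 30 months and that of steer 3 at 25 months, 77 to 101 rows stood out of line with the CPM values and were recomputed from them (relative tolerance 0.001 or 0.02 counts), so this step goes with age in FC, where 56 miRNAs were called from 25 to 30 months and 10 with the rows as deposited. The rows of the 3 members matched in every library and held whole numbers. Rows of 4 other miRNAs of the lists, bta-miR-93 among them, were recomputed.

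Counts were rounded, kept at CPM above 5 in at least 3 of 9 libraries, scaled by TMM and tested with the quasi-likelihood method of edgeR 4.0.16 (R 4.3.3, limma 3.58.1). Age was fitted with steer as a block in each fraction, and EX against FC with plasma sample as a block. P-values were adjusted by Benjamini-Hochberg over all miRNAs tested. A call needs FDR under 0.05 and an absolute log2 fold change above 1 (FDR alone for the interaction). DESeq2 1.42.0 was an alternative. Ratios used exact permutation tests (Python 3.11.15, scipy 1.17.1, numpy 2.4.6, pandas 2.3.3) and the plots matplotlib 3.10.9. Steer numbers come from the labels and the study's list of animals, which gives the same 3 steers at each age, and deviations from the age means correlated by 0.0248 between libraries of 1 steer in EX and 0.12 in FC (-0.0124 and -0.0604 between steers). The p-values for age measure the spread of the change with age over these 3 animals. Those for EX against FC measure the spread of the difference over 9 plasma samples, which share the animals.

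Tested on simulated counts with 200 changed miRNAs, the method recovered 20.9% of changes of 1.5 and 47.7% of changes of 3 on the log2 scale among 345 miRNAs in EX, and 62.9% and 86.4% among 358 in FC. No pair of libraries of a group was a copy of another (smallest chi-square per degree of freedom 196 over 18 pairs).

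The members and the lists were chosen with earlier results of these data known. Named are the 3 members, bta-miR-23a and bta-miR-93 as references, of the red-cell list the miRNAs called from 25 to 30 months, and for each member the 3 miRNAs of highest correlation. bta-miR-185 of the list was named after its values were seen. Lists of platelet and myeloid, liver, and liver and gut miRNAs were also tested from 25 to 30 months. edgeR's quasi-likelihood test called 1 of 6, 0 of 2 and 0 of 2 in EX (14.2% of all miRNAs called) and 1 of 6, 1 of 2 and 1 of 3 in FC (15.6%). DESeq2 called 1 of 6, 1 of 2 and 0 of 2 in EX (85 of all 345) and 0 of 6, 1 of 2 and 1 of 3 in FC (80 of all 358). The alternatives were other scalings, tests, filters and blocks, leaving out each steer, the deposited rows, and division of the counts of 30 months libraries by their most common low count, found within a window of a factor of 1.25. Read mapping, qPCR and carcass records were not analysed here.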

Additional observations from a re-analysis of the deposited data

Results flagged for a closer look

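The change of bta-miR-22-3p from 25 to 30 months, a miRNA of the list of other red-cell miRNAs, differed between the fractions. The interaction was 0.54 ± 0.12 on the log2 scale (EX minus FC, edgeR's quasi-likelihood test, FDR = 0.0288, 6.97% of 330 miRNAs called), in the same direction in 3 of 3 steers (0.683 to 0.931 by CPM). It was not called with no filter (FDR = 0.0774), with CPM above 1 (FDR = 0.134), with divided 30 months counts (FDR = 0.232), without the plasma block (FDR = 0.467) or with steer as the block (FDR = 0.364). Nor was it called without any 1 steer, where the interaction was smaller at 0.18 to 0.45 (FDR = 0.186 to 0.426).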

How the results depend on the processing

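Of 737 values recomputed, 550 kept their direction and side of the threshold or, where the value was a number of miRNAs called, stayed near the main number. The rise of bta-miR-486 to bta-miR-451 against 25 months alone was 2.13 in EX and 2.10 in FC on the log2 scale, where p cannot go below 0.25, and without 1 steer it was 1.89 to 2.27 and 1.81 to 1.93, where p cannot go below 0.111. bta-miR-451 in EX from 25 to 30 months was -1.78 with the library total alone and -2.54 to -1.81 without 1 steer. bta-miR-486 there was 0.072 with DESeq2-type size factors, 0.072 with DESeq2, 0.39 with the library total alone and -0.29 to 0.20 without 1 steer, never called.

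bta-miR-144 in EX was called with DESeq2 (-1.66), the likelihood ratio test (-1.76), no block (-1.75) and divided counts (-1.97). bta-miR-451 in FC was called with DESeq2 (-1.65), the likelihood ratio test (-1.68), no filter (-1.78), no block (-1.66) and divided counts (-1.72). EX against FC, bta-miR-451 at 25 months passed the FDR limit with size factors (0.91), DESeq2 (0.91), the likelihood ratio test (0.78), no filter (0.73), CPM above 1 (0.85), deposited rows (0.87) and divided counts (0.84), and at 30 months with the library total alone (0.71). The interaction of bta-miR-486 passed with DESeq2 (-0.36), with CPM above 1 (-0.54) and without steer 3 (-0.72), and spanned -0.72 to -0.35 without 1 steer.

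Without the replicate block of plasma sample, EX against FC lost bta-miR-451 at 20 months (0.92, or 0.90 with steer as the block) and bta-miR-486 at 20, 25 and 30 months (0.53, 0.82 and 0.49, or 0.55, 0.83 and 0.49 with steer). Without 1 steer bta-miR-451 at 20 months was 0.82 to 1.45, and bta-miR-486 was 0.63 to 0.77 at 20 months and 0.22 to 0.47 at 30 months. Dropping the replicate block of steer added the calls of bta-miR-144 in EX and bta-miR-451 in FC from 25 to 30 months given above and changed no other call of a member between these ages.

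Directions that turned were of values never called. bta-miR-486 to bta-miR-93 in FC was -0.089 against 25 months alone and -0.10 to 0.23 without 1 steer, bta-miR-451 to bta-miR-144 in EX was -0.79 to 0.21, and bta-miR-144 to bta-miR-23a in FC was -0.15 to 0.52. From 20 to 25 months bta-miR-451, bta-miR-486 and bta-miR-144 spanned -0.27 to 1.11, -0.43 to 0.91 and -0.28 to 0.92 in EX and -0.24 to 1.14, -0.65 to 0.72 and -0.62 to 0.87 in FC. From 20 to 30 months bta-miR-486 spanned -0.23 to 0.62 in EX and -0.084 to 1.03 in FC, and bta-miR-144 in FC -0.85 to 0.12.

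The number of miRNAs called from 25 to 30 months was 49 in EX, 85 with DESeq2, 90 with the likelihood ratio test and 0 to 18 without 1 steer. In FC it was 56, with 10 for the deposited rows and 1 to 54 without 1 steer. From 20 to 30 months in FC it was 25, with 2 for the deposited rows and 1 to 10 without 1 steer. It was 49 there with DESeq2, 53 with the likelihood ratio test, 52 with no filter and 40 with divided counts. From 20 to 30 months in EX it was 46, with 28 for the library total alone, 78 with DESeq2, 83 with the likelihood ratio test and 0 to 12 without 1 steer. The cause of these differences was not tested. With 3 steers as blocks, a change with age must be large against how far that change differs between the animals to be called.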
